A study of Mus musculus with 12 samples.

Results

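The comparison described here sets 6 less degraded single cells against 6 more degraded ones among the 12 ScxGFP+ tendon cells of the series, that is, all of its members. The degradation level of each cell was the study's own, and each level held 3 Tnmd-/- and 3 WT cells: Tnmd-/- cells 9, 10 and 20 and WT cells 4, 5 and 10 were less degraded, and Tnmd-/- cells 1, 3 and 7 and WT cells 1, 2 and 14 were more degraded. All cells were untreated and came from uninjured Achilles tendons of mice on a C57BL/6 background (C57BL/6J in the methods) that carried ScxGFP, a green fluorescent reporter of the tendon transcription factor scleraxis. The Tnmd-/- animals lacked tenomodulin constitutively, in every tissue, and the WT animals were littermates. Tnmd lies on the X chromosome, and the study counted heterozygous females as WT, beside homozygous females and hemizygous males. The methods do not give the sex of the animals behind these cells. Tendons were digested with collagenase for hours, fluorescent cells were picked one by one with a micromanipulator, and each cell was frozen in lysis buffer before Smart-Seq2 amplification. The methods give n = 2 tendons but do not say which cell came from which animal, and they give no age for these tendons. A cell was therefore not counted as a replicate of a condition: no test was made, each measure is given by its values over cells, and a difference is described by whether the levels overlapped and whether it held within both genotypes. The criterion for the level was not given in the sources used here. The study also measured library complexity, the origin of reads and the coverage from one transcript end to the other, so the levels may rest on properties of these same libraries.

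Smart-Seq2 primes reverse transcription at the poly(A) tail and copies toward the start of the transcript, so that a transcript broken before priming yields cDNA only from the piece that still carries the tail. RNA in dying or damaged cells is cut by nucleases, cytoplasmic mRNA is often lost first, and nuclear transcripts and RNA inside mitochondria are better protected. For this reason the mitochondrial share, nuclear non-coding RNA and the balance of short and long genes are common quality readings in single cell data. The counts were of reads that mapped uniquely to exons, with no molecular identifiers, and levels are given as CPM, a gene's counts divided by the cell's total and scaled to 1000000.

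The more degraded cells held fewer counts, and the levels did not overlap. The less degraded cells had 6742665 to 13613080 counts, and the more degraded cells had 892713 to 5991316. Tnmd-/- cells 7 and 3 were the shallowest, with 892713 and 1504775 counts. The main comparisons therefore also stand beside values after thinning, in which counts were drawn at random from each cell down to 892713, the total of the shallowest. The share of counts in the 50 most counted genes overlapped widely, at 34.2% to 53.7% in the less degraded cells and 30.8% to 69.5% in the more degraded ones, and the highest value, in Tnmd-/- cell 3, came with mitochondrial RNA. Tendon fibroblast genes were detected in every cell, 5 to 9 of 10. Their summed CPM was 30395 to 124005 in the less degraded cells and 1684 to 176923 in the more degraded cells, and it was lowest in Tnmd-/- cells 3 (1684) and 7 (15615). Of 8 lists of markers of other cell types, the immune and red blood cell lists were at 0 in all 12 cells, and the largest sums were 1230 CPM of cartilage genes in Tnmd-/- cell 10, which was less degraded, and 922 CPM of adipocyte genes in Tnmd-/- cell 3. The endothelial, mural, glial and skeletal muscle lists were at most 195 CPM in any cell, no list separated the levels, and their part in the results was not tested. Tnmd itself had 0 to 5 counts in the Tnmd-/- cells, 10178 counts in WT cell 14, 7 in WT cell 2 and 0 in the other 4 WT cells, so that its level could check the label of only 1 WT cell.

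Long genes held a larger share of the counts in the more degraded cells. Length here is that of all exons of a gene merged, as deposited, and mitochondrial genes were left out. Genes over 4 kb took 35.1% to 41.9% of the nuclear counts in the less degraded cells (median 40.8%) and 43.5% to 66.6% in the more degraded cells (median 50.5%), with no overlap in the 12 cells or within either genotype. The 3 less degraded Tnmd-/- cells were at 40.2%, 41.9% and 41.4%, and the 3 more degraded ones at 49.7%, 64.1% and 66.6%. The 3 less degraded WT cells were at 35.1%, 39.4% and 41.4%, and the 3 more degraded ones at 48.8%, 51.2% and 43.5%. The difference was thus wider among Tnmd-/- cells, where cells 3 and 7 stood far above the rest. Without those cells the medians still differed by 8.5 percentage points, against 9.7 points with them, and after thinning by 9.76 points. WT cell 14 was the more degraded cell nearest to the other level. When the 50 most counted nuclear genes of each cell were left out its share was 46.1%, below all 6 less degraded cells (46.8% to 50.6%), while the other 5 more degraded cells were at 54.1% to 63.7%. With the longest annotated transcript in place of merged exons, WT cell 14 (29.9%) fell within the range of the less degraded cells (22.0% to 30.2%), and the other 5 were at 33.7% to 53.5%.

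**Figure D1:**
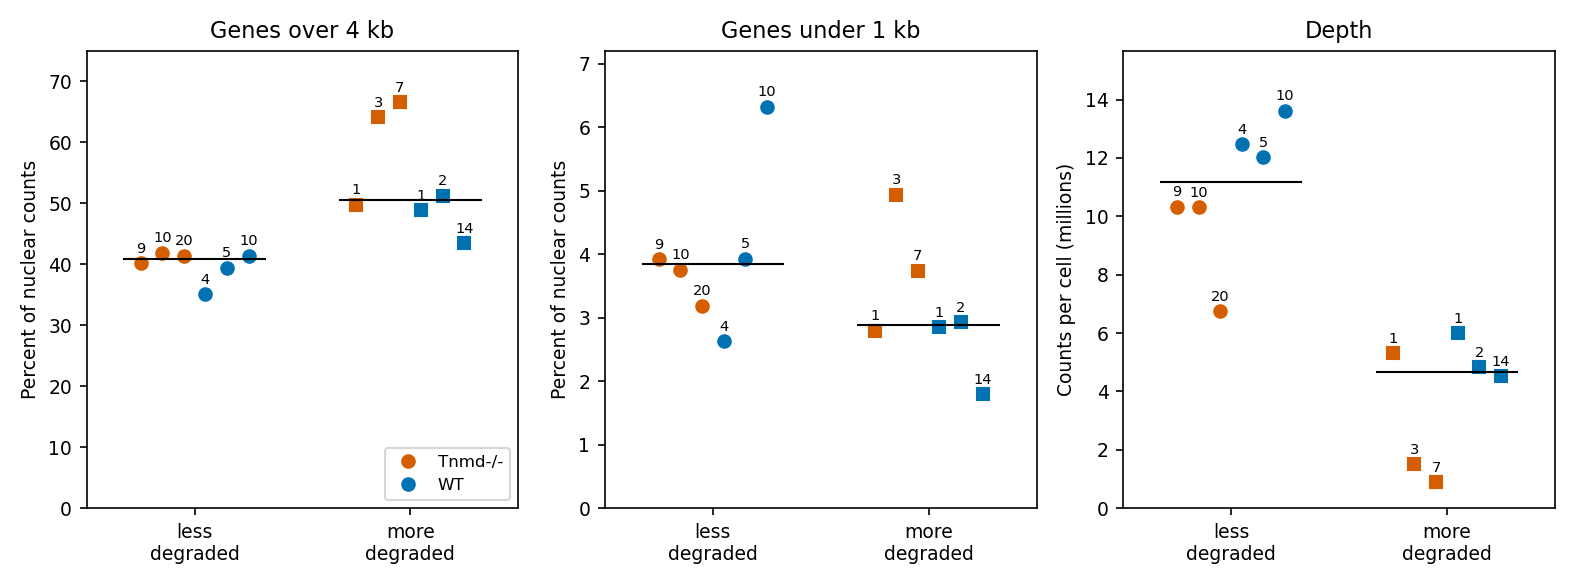
Share of nuclear counts on genes over 4 kb (left) and under 1 kb (middle), in percent, and total counts (right, axis in units of 1000000), 1 point per cell with its cell number, in the 6 less and 6 more degraded cells; circles are less and squares more degraded, orange is Tnmd-/- and blue WT, and lines are medians. The over 4 kb share runs from 35.1% to 41.9% in the less and from 43.5% to 66.6% in the more degraded cells, while the share under 1 kb overlaps.

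The larger share of long genes stood beside a smaller share of genes between 1 and 4 kb. Genes of 1 to 2 kb took a median of 20.8% of the nuclear counts in the less degraded cells and 13.9% in the more degraded cells. Genes of 2 to 4 kb took 35.8% and 30.5%, and genes over 8 kb took 11.2% and 17.1%. WT cell 14 went against the medians for genes of 1 to 2 kb and over 8 kb. It was more degraded, yet of all 12 cells it had the highest share of genes of 1 to 2 kb (23.7%) and the lowest of genes over 8 kb (8.22%), so that the levels overlapped in both classes. For genes of 2 to 4 kb several cells overlapped, at 30.8% to 40.6% in the less and 23.2% to 34.3% in the more degraded cells. Genes under 1 kb were a small part in every cell, 2.63% to 6.33% in the less and 1.80% to 4.94% in the more degraded cells, and these ranges overlapped. The median gene length of the nuclear counts was 3276 to 3437 bases long in the less degraded cells and 3437 to 6136 in the more degraded cells. The value 3437, shared by 5 cells, is the length of Clu, named here after its values were seen, which encodes the secreted chaperone clusterin and was the most counted gene in 4 cells.

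Gene by gene, the difference between levels fell with length in both genotypes. Of 55418 genes, 4245 had at least 10 counts in at least 3 of the 12 cells and were compared on the scale log2(CPM + 1), less degraded minus more degraded. The median over all of them was 0.96, 0.88 within Tnmd-/- cells and 1.08 within WT cells, so that most genes (71.1%) had higher CPM in the less degraded cells, and the difference of any group has to be read against that shift. Among protein-coding genes the median difference was 1.78 for the 97 genes of 0.5 to 1 kb, 1.73 for 398 genes of 1 to 2 kb, 1.45 for 1038 genes of 2 to 4 kb, 0.99 for 1395 genes of 4 to 8 kb and 0.53 for 959 genes over 8 kb. It fell with length from 1 kb upward in the Tnmd-/- cells (1.67, 1.36, 0.78 and 0.09) and from 2 kb upward in the WT cells (1.67, 1.22 and 0.89). Only 9 protein-coding genes under 0.5 kb were compared, with a median of 0.72. When all biotypes were taken, the classes under 1 kb came out lower, at 0.25 under 0.5 kb and 0.87 at 0.5 to 1 kb. Pseudogenes made up 102 of the 130 and 99 of the 201 genes in those classes, and as many are near-copies of mRNAs, their counts are uncertain. The difference also varied with the GC content of the longest transcript, from a median of 0.48 below 40% GC to 1.32 at 55 to 60% GC and 0.84 over 60%. Its rank correlation across genes was -0.16 with length and 0.12 with GC, and the part of each was not tested.

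**Figure D2:**
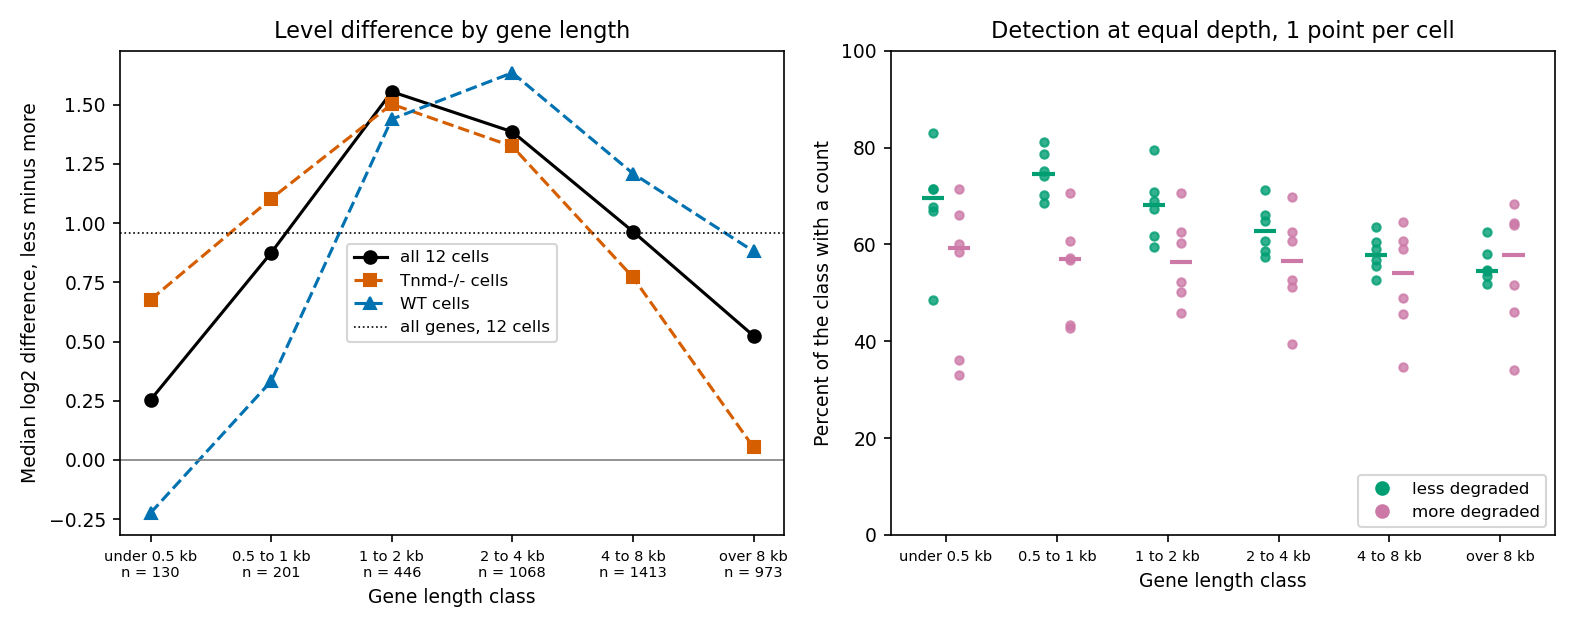
Left, median log2(CPM + 1) difference (less minus more degraded) of genes in 6 classes of length, for all 12 cells (black), the 6 Tnmd-/- cells (orange) and the 6 WT cells (blue), with the median of all genes dotted (0.96). Right, percent of the genes of each class with at least 1 count after thinning, 1 point per cell and bars at medians; the medians of the levels lie furthest apart at 0.5 to 1 kb (74.6% and 57.0%) and in the reverse order over 8 kb (54.6% and 57.8%), where Tnmd-/- and WT cells go opposite ways.

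Detection by length differed between the genotypes. At equal depth, genes of 0.5 to 1 kb that passed the filter were detected in 68.7% to 81.1% of cases in the less degraded cells and 42.8% to 70.6% in the more degraded cells. For genes of 1 to 2 kb the medians were 68.2% and 56.3%. For genes over 8 kb they were 54.6% and 57.8%, but the genotypes went opposite ways there: the share was 51.8% to 54.7% in the less and 64.0% to 68.4% in the more degraded Tnmd-/- cells, and 54.5% to 62.5% in the less and 34.1% to 51.6% in the more degraded WT cells. This difference between genotypes was not tested, and over all 12 cells the ranges overlapped in every class.

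The number of genes detected depended on what was counted as detected. With at least 1 count there were 4606 to 5636 genes (median 5050) in the less degraded cells and 3505 to 5062 (median 4221) in the more degraded cells. With at least 10 counts the medians were 3328 and 1884. After thinning to equal depth, 1 count or more gave 3280 to 3506 genes in the less degraded Tnmd-/- cells and 3819 to 4339 in the more degraded ones, but 3483 to 3895 in the less degraded WT cells and 2148 to 2986 in the more degraded ones. At that depth the genotypes thus went opposite ways, with no overlap in either, and this difference between them was not tested. It depended on the depth. At 300000 counts the Tnmd-/- levels overlapped (2785 to 3118 against 2726 to 3261 genes), and at 100000 counts Tnmd-/- cells 3 and 7, with 1864 and 2066 genes, lay below all less degraded Tnmd-/- cells (2457 to 2749), as the more degraded WT cells did at every depth. With at least 10 counts after thinning the opposite directions were not seen either: the more degraded Tnmd-/- cells 1, 3 and 7 had 2491, 1356 and 1413 genes against 2249 to 2566 in the less degraded ones, and the WT cells had 1058 to 2059 against 2629 to 2851. Genes with 1 to 9 counts were 30.9% to 39.9% of the genes detected in the less degraded cells and 37.2% to 67.4% in the more degraded cells, highest in Tnmd-/- cells 7 (67.4%) and 3 (63.0%) and WT cell 14 (61.5%).

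Many of these low counts fell on genes that were high in another cell. Of the genes with 1 to 9 counts, 73.4% in Tnmd-/- cell 7, 71.7% in WT cell 14 and 70.3% in Tnmd-/- cell 3 reached 100 CPM in at least 1 other cell. In the other more degraded cells the shares were 49.8% to 60.4%, and in the less degraded cells 44.1% to 54.1%. The share of all genes in the table, 9.86% to 10.2%, is no baseline for these, since it includes genes without a count in any cell. A count of 1 to 9 also stands for more CPM in a shallow cell, and the shares at equal depth were not examined, so the levels cannot be compared by them. The shares depended on the pair of cells. Of the 1225 genes at or above 100 CPM in WT cell 10 and below it in Tnmd-/- cell 7, 92.2% had a count in Tnmd-/- cell 7. For WT cell 1 and Tnmd-/- cell 7 the share was 91.5%, and for WT cell 5 and Tnmd-/- cell 3 it was 89.7%. Over all 132 ordered pairs the median share was 53.6% and the lowest 33.2%, and 15 pairs were above 80%. The 15 pairs lay both within and across genotypes and levels. Whether reads passed between libraries was not tested.

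**Figure D3:**
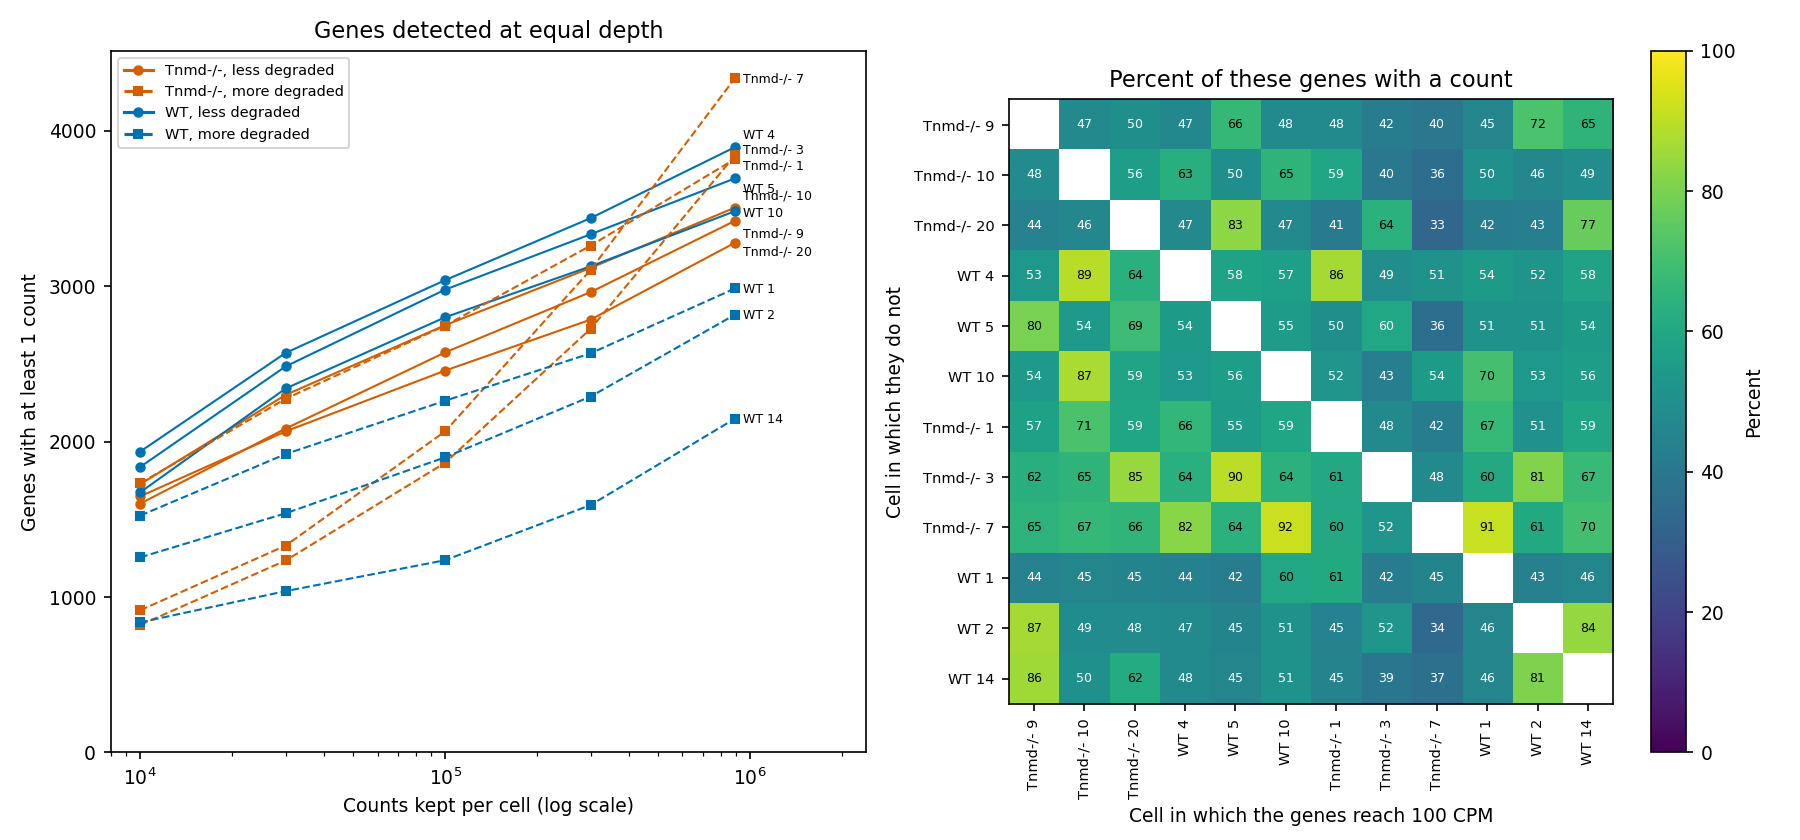
Left, genes with at least 1 count (linear axis) after thinning each cell to between 10000 and 892713 counts (log axis), solid lines and circles for less degraded and broken lines and squares for more degraded cells, orange for Tnmd-/- and blue for WT. Right, for each pair, the percent of the genes that reach 100 CPM in the column's cell and not in the row's cell that still have a count in the row's cell; most pairs lie between 33.2% and 60%, and 15 lie above 80%.

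Among the 4245 genes, 577 (13.6%) were at least 4-fold higher in the less degraded cells within each genotype, and 89 (2.1%) were at least 4-fold higher in the more degraded cells. After thinning these were 560 (16.6%) and 84 (2.49%) of 3376 genes. The genes on each side differed in length: the median was 3710 bases for the 577 and 7643 bases for the 89, against 4518 for all genes compared, and 69 of the 89 were over 4 kb. The count for the more degraded cells rested in part on single cells, being 145 when WT cell 14 was left out and 154 when Tnmd-/- cells 3 and 7 were. The 577 became 550 and 574, but the genes changed. Of the original 577, 491 were still past 4-fold without WT cell 14 and 400 without Tnmd-/- cells 3 and 7. Of the original 89, 81 and 73 were. Scaling mattered as well. With DESeq2 size factors, which moved the median difference of all genes from 0.96 to 0.09, the counts were 231 and 223, so that the side of the less degraded cells was 50.9% of the genes past 4-fold in place of 86.6%. In 26 genes (0.612%) all 6 less degraded cells stood above all 6 more degraded ones, and in 5 genes (0.118%) the reverse held. Agreement between the genotypes over all genes was weak: the differences within Tnmd-/- cells and within WT cells, which share no cell, had a rank correlation of 0.10 across genes, and 56.2% had the same sign. Pairs of less degraded cells were slightly more alike than mixed pairs and pairs of more degraded cells were not, with median rank correlations across genes of 0.32 for pairs of less degraded cells, 0.27 for pairs of more degraded cells and 0.28 for mixed pairs (0.42, 0.27 and 0.30 with at least 10 counts in 6 of 12 cells).

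The 15 genes with the largest differences in favour of the less degraded cells were protein-coding genes of many functions. Of these, 9 did not overlap between levels, against 26 (0.612%) of all 4245 genes, and the choice by largest difference favours such genes. Eif3i, a subunit of the translation initiation factor eIF3 (chromosome 4, 129591960 to 129600648, GRCm38), was at 252, 190 and 558 CPM in the less degraded Tnmd-/- cells and 160, 113 and 123 CPM in the less degraded WT cells, and at 0 to 3.32 CPM in the more degraded cells. Atp6ap1, an accessory subunit of the vacuolar proton pump that acidifies lysosomes, was at 198 to 841 CPM and 1.11 to 19.5 CPM. Tmbim4, a Golgi membrane protein of the BAX inhibitor family, was at 146 to 502 CPM and 0.17 to 6.72 CPM. None of these 3 overlapped between levels, and among the more degraded cells Atp6ap1 was highest in WT cell 1 (117 counts). The mitochondrial proteins Sdhc (33.9 to 177 CPM against 0 to 1.33 CPM) and Sdhd, both subunits of succinate dehydrogenase, Mrpl17 of the mitochondrial ribosome and Atp5mpl of ATP synthase were among the 15. Sdhd was listed near 0 in 2 less degraded cells, Tnmd-/- cell 9 (0 CPM) and WT cell 10 (0.88 CPM), so its levels overlapped. The transporters Slc22a4 and Slc7a2 were at 112 to 814 CPM against 0.41 to 14.1 CPM and at 25.6 to 1283 CPM against 0.19 to 21.9 CPM. Psenen, a subunit of gamma-secretase, was at 34.6 to 213 CPM and 0 to 0.66 CPM. The remaining genes were Rhoa, a small GTPase of the actin cytoskeleton, H2-K1, a class I histocompatibility antigen, Tsc22d1, Ube2f and Cacybp, and each had at least 1 cell against the order. Rhoa was at 454 CPM in the more degraded WT cell 1, H2-K1 at 0.073 CPM in the less degraded WT cell 10, and Cacybp at 1086 CPM in the more degraded WT cell 2.

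The 14 genes described here in the other direction, chosen by the same rule for the more degraded cells, were longer and less regular. Their exon lengths ran from 3495 bases (Rpl7l1) to 93092 bases (Kcnq1ot1), and only Olfr613 did not overlap between levels. Kcnq1ot1, a nuclear antisense RNA that silences neighbouring imprinted genes (chromosome 7, 143203458 to 143296549), was at 77.6, 371 and 229 CPM in the less degraded Tnmd-/- cells, 2.16, 0.92 and 0.44 CPM in the less degraded WT cells, 1133, 1704 and 10381 CPM in the more degraded Tnmd-/- cells and 524, 140 and 26.1 CPM in the more degraded WT cells. It was thus higher in the more degraded cells of each genotype with no overlap within either, although the genotypes started from different levels. Serbp1, an mRNA-binding protein, was at 1.36 to 43.0 CPM against 29.9 to 769 CPM. Usp7, a deubiquitinase that stabilises MDM2, was near 0 in 5 less degraded cells and at 175 CPM in Tnmd-/- cell 20, and it ranged from 1.33 to 1141 CPM in the more degraded cells. The RNA helicase Ddx17, the RNA-binding proteins Rbm4b and Nufip2, the cyclin Ccnl1, the chromatin remodelling subunit Pbrm1, the translocon component Sec63, the kinase Mark3, the transcriptional inhibitor Id4, the protease Nrd1 and the ribosomal protein-like Rpl7l1 made up the rest, each with high values in some of the more degraded cells and low ones in others. Rbm4b shares 30.8% of its exon bases with another gene, so its counts are less certain. Olfr613, an odorant receptor gene, had 0 to 0.17 CPM in the less degraded cells and 3.58 to 606 CPM in the more degraded cells, with 405 CPM in Tnmd-/- cell 3, 606 CPM in Tnmd-/- cell 7 and at most 11.2 CPM in the other 4.

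**Figure D4:**
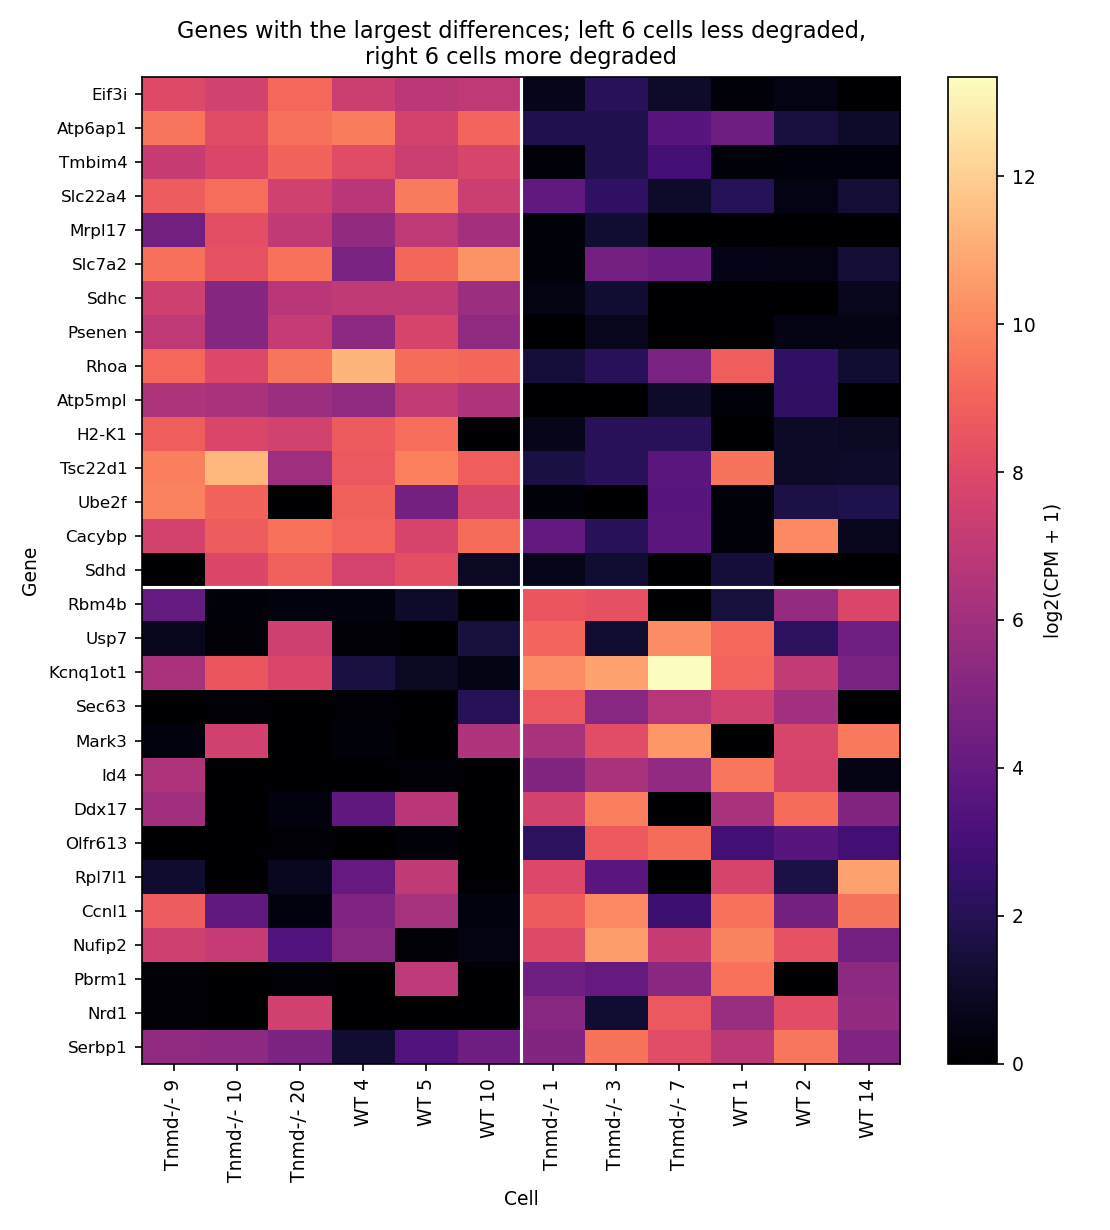
log2(CPM + 1) of the genes with the largest differences, 15 higher in the less degraded cells (upper rows) and 14 higher in the more degraded cells (lower rows), in the 12 cells (columns), less degraded cells left of the white line and more degraded cells right of it. The genes were chosen for these differences and for counts in most cells of the higher level. By that choice the upper 15 are bright in nearly all less degraded cells and dark in most of the more degraded ones. The lower 14 are bright in some but seldom all of the more degraded cells.

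Mitochondrial RNA separated the levels within Tnmd-/- cells but not within WT cells. It took 1.75% to 2.91% of the counts in the less degraded cells and 2.33% to 51.8% in the more degraded cells. Within Tnmd-/- cells the levels were apart (1.75% to 2.91% against 5.73%, 51.8% and 7.30%), and within WT cells they overlapped (1.97% to 2.89% against 2.33% to 3.54%); this difference between genotypes was not tested. The ribosomal RNAs mt-Rnr1 and mt-Rnr2 made up most of it. Together they were at 10149 to 21972 CPM in the less degraded cells and 18296 to 435625 CPM in the more degraded cells, the highest in Tnmd-/- cell 3, in which mt-Rnr2 alone took 29.6% of the counts. The sum of the mitochondrial mRNAs was 2844 to 8163 CPM in the less degraded cells and 3197 to 5864 CPM in 5 more degraded cells, with 82753 CPM in Tnmd-/- cell 3. Of the 13 mitochondrial mRNAs 12 passed the filter, and none was past 4-fold in either direction, against 13.6% and 2.1% of all genes on the less and the more degraded side. The ratio of rRNA to mRNA was 1.38 to 6.02 in the less degraded cells and 3.69 to 15 in the more degraded cells, apart within Tnmd-/- cells (1.38 to 4.69 against 5.26 to 15) and overlapping within WT cells. mt-Cytb, of respiratory complex III, was at 885 to 2703 CPM in the less degraded cells and at 24.6 CPM in Tnmd-/- cell 7, 32558 CPM in Tnmd-/- cell 3 and 514 to 3036 CPM in the other 4. The 2 cells with the most mitochondrial RNA thus held it in different proportions.

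Several classes of non-coding RNA were higher in the more degraded cells, chiefly in the Tnmd-/- ones. Long non-coding genes took 0.64% to 1.81% of the counts in the less degraded cells and 0.81% to 9.67% in the more degraded cells, again apart within Tnmd-/- cells (1.19% to 1.35% against 2.14% to 9.67%) and overlapping within WT cells. In the list of nuclear long non-coding RNAs, 10 of 11 genes were in the table and 4 passed the filter, with a median difference of -2.31. Of these 4, 1 (25%, against 2.1% of all genes), Kcnq1ot1, was past 4-fold higher in the more degraded cells. Malat1, a nuclear RNA that stays in splicing speckles, was at 1492 to 8102 CPM in the less degraded cells and 2285 to 49668 CPM in the more degraded cells, with its highest values in Tnmd-/- cells 7 (49668 CPM) and 3 (23642 CPM). Neat1, the scaffold of nuclear paraspeckles, was at 1.63 to 444 CPM and 1.66 to 2396 CPM. Small RNA genes, a class that here includes annotated rRNA genes and that poly(A) priming should miss, took little of any library. Their share was 0.044% to 0.12% in the less degraded cells and 0.13% to 0.75% in the more degraded cells, apart also within each genotype. Part of it was 1 rRNA gene, CT010467.1, at 1001 CPM in the more degraded WT cell 14, where the whole class took 0.126% of the counts. In the less degraded WT cell 5 the gene was at 689 CPM and the class took 0.120%. The rest of the class was thus smaller in WT cell 14 than in WT cell 5. Without that gene the class therefore overlapped between levels, over all cells and within WT cells. CT010467.1 (chromosome 17, 39846353 to 39848827), annotated as an rRNA gene and named after its values were seen, was at 368 to 689 CPM against 930 to 5433 CPM, without overlap. It shares 73.9% of its exon bases with another annotated gene and rRNA is present in many near-identical copies, so that its count holds an uncertain part of the rRNA reads. Of 8 host genes of small nucleolar and other small RNAs that passed the filter, 1 (12.5%, against 2.1% of all genes) was past 4-fold higher in the more degraded cells. Their median difference was 0.33 (-0.96 with DESeq2 size factors), with -1.25 within Tnmd-/- and 1.06 within WT cells. By biotype, the median difference was 1.06 for 3896 protein-coding genes, 0.52 for 68 long non-coding genes, 0.33 for 243 pseudogenes and -0.64 for 14 small RNA genes (rRNA genes included). Pseudogenes took 0.17% to 0.42% and 0.25% to 2.21% of the counts. Non-coding genes that lie in an intron of another gene on the same strand were at 624 to 3838 CPM in the less degraded cells, 6412 to 21305 CPM in the more degraded Tnmd-/- cells and 199 to 4780 CPM in the more degraded WT cells. Reads on these genes cannot be told from unspliced RNA of the host gene. Non-coding genes apart from any other gene were at 1487 to 5385 CPM in the less degraded cells. They were at 6218 to 21685 CPM in the more degraded Tnmd-/- cells and 2793 to 13079 CPM in the more degraded WT cells. Those in introns on the opposite strand were at 442 to 1503 CPM in the less and 192 to 8531 CPM in the more degraded cells. The methods do not say whether reads kept their strand, so these counts may not be separable from unspliced RNA of the host gene either.

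The gene lists stood on both sides of the shift of 0.96 that all genes showed. With DESeq2 size factors, which brought that shift to 0.09, the medians of 11 of 22 lists changed sign, from higher to lower in the less degraded cells. The lysosomal list was the furthest, with a median difference of 3.79 over the 17 of 26 genes that passed the filter, 3.27 within Tnmd-/- and 5.21 within WT cells. Of these 17, 8 were past 4-fold higher in the less degraded cells, against 13.6% of all genes, and none in the other direction. The summed lysosomal CPM was 4195 to 19225 in the less degraded cells and 289 to 4104 in the more degraded cells, without overlap. Ctsl, a lysosomal cysteine protease, was at 96.4, 900 and 7762 CPM in the less degraded Tnmd-/- cells, 2155, 907 and 656 CPM in the less degraded WT cells, 97.2, 31.2 and 14.6 CPM in the more degraded Tnmd-/- cells and 494, 36.9 and 4.43 CPM in the more degraded WT cells. Ctsz, a carboxypeptidase of the same family, had the largest difference of the list (4.76) but was near 0 in the less degraded Tnmd-/- cell 9 and WT cell 5. Cd63, a lysosomal membrane protein, had 1226 to 3990 CPM in the less degraded cells and 31.2 to 2718 CPM in the more degraded cells, where only Tnmd-/- cells 3 and 7 were below 1143 CPM.

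Ferritin and antioxidant genes differed almost as regularly. Their sum was 25603 to 59829 CPM in the less degraded cells and 7207 to 25432 CPM in the more degraded cells, without overlap, and 9 of 26 genes (34.6%, against 13.6% of all genes) were past 4-fold higher in the less degraded cells, with a median of 2.75. Fth1, the heavy chain of ferritin, was at 6540 to 29752 CPM against 232 to 7547 CPM. Gstp1, a glutathione transferase, was at 382 to 2017 CPM against 0.33 to 641 CPM, with Tnmd-/- cell 1 alone at 641 CPM among the more degraded cells. Gpx3, a secreted glutathione peroxidase, went against the list (-1.18), with values from 0.083 to 2424 CPM in the less degraded cells and 0.19 to 1232 CPM in the more degraded cells.

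Glycolysis had a median of 3.26 over 13 genes, 6 of them (46.2%, against 13.6% of all genes) past 4-fold higher in the less degraded cells. Gapdh was at 560 to 2673 CPM in the less degraded cells and at 601, 99.0, 45.9, 1291, 2281 and 3.54 CPM in the more degraded Tnmd-/- cells 1, 3 and 7 and WT cells 1, 2 and 14. Aldoa, the aldolase of the same pathway, was at 273 to 2172 CPM and 1.99 to 759 CPM. The more degraded cells thus ran from nearly none up to the level of the other group, and no glycolytic gene was free of overlap. Ldha, lactate dehydrogenase, had a difference of -0.28, which was 3.59 within Tnmd-/- and -4.15 within WT cells.

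The nuclear-encoded respiratory chain gave 20 of 67 genes (29.9%, against 13.6% of all genes) past 4-fold higher in the less degraded cells and a median of 2.42. Of the 67, 47 were higher in the less degraded cells of both genotypes. The reverse held for 2, Ndufa6 and Ndufs7 (named after their values were seen). Cox6b1, of complex IV, was at 334 to 901 CPM in the less degraded cells and at 681 and 765 CPM in the more degraded Tnmd-/- cell 1 and WT cell 2 but 0.17 to 9.97 CPM in the other 4. Ndufv2, of complex I, was the furthest the other way (-1.56), on 350.3 CPM in WT cell 14 and 80.6 CPM in WT cell 2. The mitochondrial mRNAs, which encode other subunits of these complexes, had a median of 0.54 (-1.06 with DESeq2 size factors).

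Histones had 3 of 7 genes past 4-fold higher in the less degraded cells (42.9%, against 13.6% of all genes) and a median of 3.19. Cytoskeletal genes had 8 of 28 (28.6%, median 1.60), proteasome subunits 7 of 31 (22.6%, median 1.56), secretory and collagen processing genes 7 of 33 (21.2%, median 1.84) and translation factors 7 of 34 (20.6%, median 1.83), shares nearer to that of all genes. The medians of the translation factors were 2.19 within Tnmd-/- and 0.75 within WT cells. Actg1, a cytoplasmic actin, was at 368 to 3285 CPM in the less degraded cells and at 2.88 to 103 CPM in 5 more degraded cells, with 5593 CPM in WT cell 1. Psmd4, the ubiquitin receptor of the proteasome, was at 98.0 to 812 CPM and 0.38 to 360 CPM. H3f3b, a histone H3.3 gene with a poly(A) tail, was at 882 to 2454 CPM in the less degraded cells and 9.30 to 2375 CPM in the more degraded cells.

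Ribosomal protein genes differed in direction between the genotypes, which was not tested. Of 78 genes 77 passed the filter, with a median of 1.43, but this was 2.83 within Tnmd-/- cells, -0.26 within WT cells and -0.16 with DESeq2 size factors. Only 3 of the 77 (3.9%, against 13.6% of all genes) were past 4-fold higher in the less degraded cells of both genotypes. They were Rpl14, Rpl15 and Rpl29, named after their values were seen. The sum was 38947 to 98469 CPM in the less degraded cells and 47120 to 93611 CPM in 4 more degraded cells, with 14287 CPM in Tnmd-/- cell 3 and 9612 CPM in Tnmd-/- cell 7. Rplp0, of the ribosomal stalk, was at 3923 to 9860 CPM in the less degraded cells, 101 and 115 CPM in Tnmd-/- cells 3 and 7, and 3447 to 5502 CPM in the other 4. The low sums were thus those of Tnmd-/- cells 3 and 7, and without these cells the median of the ribosomal protein list was 0.035. Heat shock proteins had a median of 0.62, 2.63 within Tnmd-/- and -0.78 within WT cells, and the sign rested on Tnmd-/- cell 3, since the median was -0.46 without it and -0.72 without cells 3 and 7. Hspa1b, an inducible chaperone of the HSP70 family, was at 34.1 to 154 CPM in the less degraded cells, 664, 1737 and 1640 CPM in the 3 more degraded WT cells, 1367 CPM in Tnmd-/- cell 7 and 28.8 and 6.65 CPM in Tnmd-/- cells 1 and 3.

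Matrix genes ranged widely from cell to cell. Their sum was 85623 to 323911 CPM in the less degraded cells and 4134 to 216788 CPM in the more degraded cells, lowest in Tnmd-/- cells 3 and 7, and 6 of 33 genes (18.2%, near the 13.6% of all genes) were past 4-fold higher in the less degraded cells, with a median of 2.02, 0.14 within Tnmd-/- and 2.15 within WT cells. Spp1, the secreted phosphoprotein osteopontin, had the largest difference (5.38): it was at 3462 to 71904 CPM in the less degraded cells, 34321 CPM in the more degraded WT cell 2, and 27.9 to 3242 CPM in the other 5. Dcn, the collagen-binding proteoglycan decorin, was at 22270 to 108452 CPM in the less degraded cells and 928 to 133605 CPM in the more degraded cells. Tgfbi, an adhesion protein of the matrix, went the other way (-3.90), on 381, 784 and 993 CPM in 3 more degraded cells and 348 CPM in 1 less degraded cell.

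Lists of cell stress and RNA turnover lay near or below the shift of all genes, and their medians were below 0 with DESeq2 size factors. Immediate early genes had a median of 1.07 (-0.26 with DESeq2 size factors), the unfolded protein response 0.80, splicing factors 0.79, RNA decay enzymes 0.45 and apoptosis and p53 response 0.41. Tendon regulators and membrane markers were at 0.94. Past 4-fold higher in the less degraded cells were 2 of 31 immediate early (6.45%), 3 of 14 unfolded protein response (21.4%), 5 of 36 splicing (13.9%) and 0 of 11 apoptosis genes, against 13.6% of all genes. In the other direction these lists had 2 (6.45%), 1 (7.14%), 2 (5.56%) and 1 (9.09%), against 2.1% of all genes. Xbp1, a transcription factor of the unfolded protein response, was at 0 to 6.33 CPM in the less degraded cells and at 459, 819 and 1267 CPM in the more degraded Tnmd-/- cell 1 and WT cells 1 and 2, but 0.66 to 11.2 CPM in the other 3. Zfp36, which binds and destabilises AU-rich mRNAs, was at 45.7 CPM in 1 less degraded cell and at most 0.59 CPM in the other 5, and at 152 to 164 CPM in 3 more degraded cells. Cdkn1a, a p53 target, was at 1138 to 5859 CPM in the less degraded cells and 105 to 9925 CPM in the more degraded cells. None of the 25 RNA decay genes past the filter was past 4-fold in either direction, against 13.6% and 2.1% of all genes on the less and the more degraded side.

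**Figure D5:**
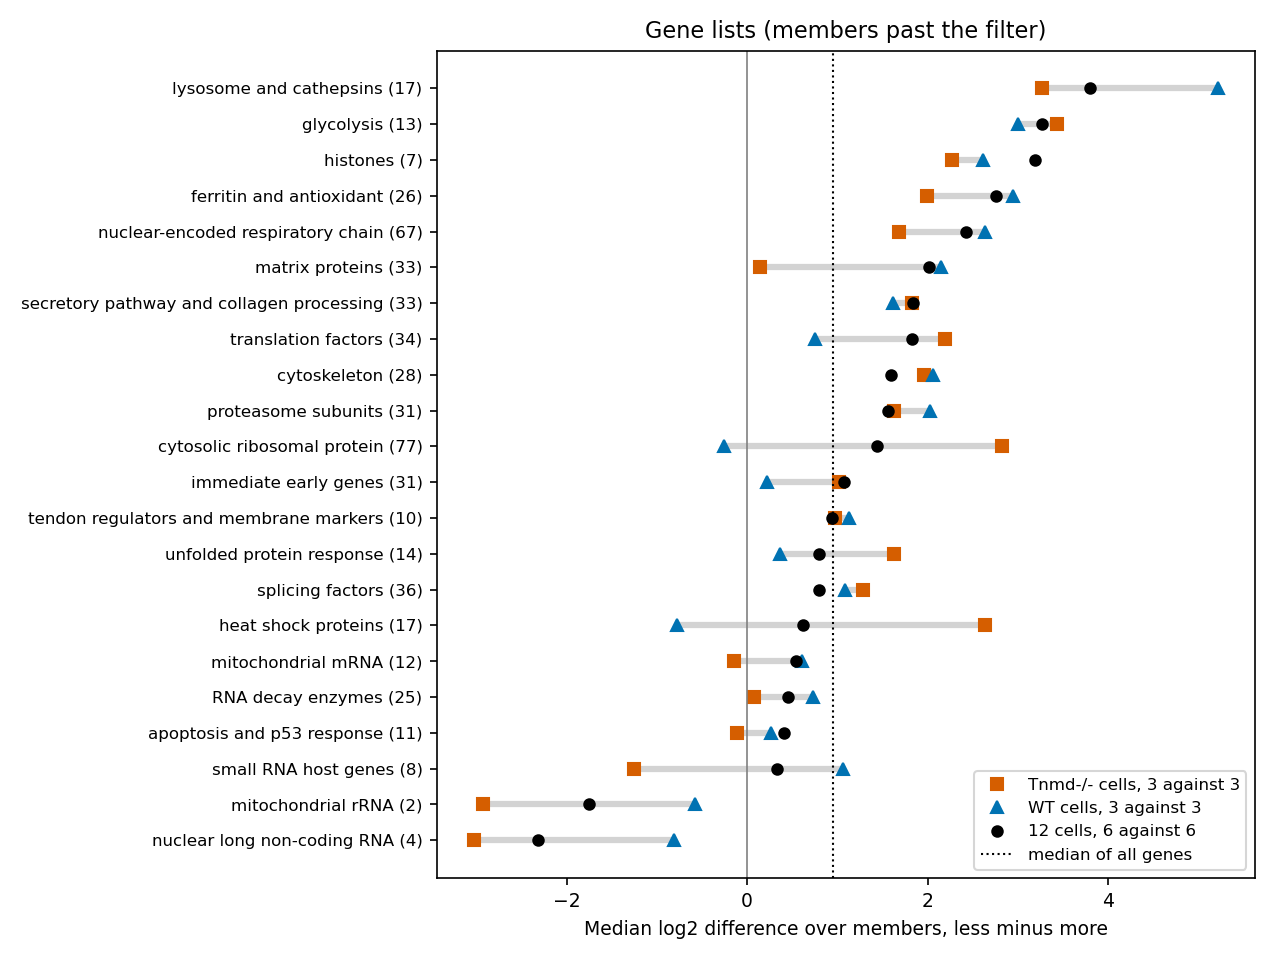
Median log2(CPM + 1) difference, less minus more degraded, over the members of each list that passed the filter (number in parentheses), for all 12 cells (black), Tnmd-/- cells (orange squares) and WT cells (blue triangles). The dotted line is the median of all genes (0.96); lysosomal genes (3.79) lie furthest to the right and nuclear long non-coding RNAs (-2.31) furthest to the left, and ribosomal and heat shock genes show the widest gaps between the genotypes.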

How the data were processed

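Single ScxGFP+ cells were amplified by Smart-Seq2 and sequenced by the authors, who trimmed reads, removed reads not exclusive to mouse, aligned the rest with STAR 2.5.1b to GRCm38 (Ensembl annotation) and counted uniquely mapped exonic reads per gene with featureCounts of Subread 2.0.0 (FastQC 0.11.9 and MultiQC 1.9 for quality). The deposited values are raw counts per gene for each of 12 cells, with a column of gene length, and no correction for degradation had been applied to them. The matched table held 55418 genes, and biotype and position came from a GENCODE annotation of the same assembly, in which all symbols were found. Because counts are of reads without molecular identifiers and library preparation was by poly(A) priming, levels depend on amplification and on where transcripts broke.

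CPM, log2(CPM + 1), medians and overlaps were computed in Python 3.11.15 with pandas 2.3.3. Genes needed at least 10 counts in at least 3 cells. A gene was called past 4-fold when the difference of mean log2(CPM + 1) was at least 2 in the same direction in each genotype. No test was made, because cells of unnamed animals are not replicates. Totals ranged from 892713 to 13613080 counts. The named genes are the 15 with the largest difference in the genotype where it is smaller, for either direction, taken from genes averaging 50 CPM or more in the higher level and reaching 10 counts in 5 or more of that level's cells; from each list, up to 4 members with the highest CPM or largest differences; and those said to be named after their values were seen. The members and lists were chosen with earlier results of these data known. Alternatives were thinning, other scalings (DESeq2 1.42.0 size factors, edgeR 4.0.16 TMM), filters, added CPM and leaving out cells. The calculation was tested on simulated data. Of the listed genes, all but 6 were in the table by the listed name. A gene among those selected by this rule is not reported here.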

Additional observations from a re-analysis of the deposited data

Results flagged for a closer look

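In 38 measures, each looked at over the 6 less and the 6 more degraded cells (76 groups of 6), 13 groups had a highest or lowest cell far from the nearest other one; chance alone flags about 1 group in 20, and the measures overlap. Tnmd-/- cell 3 stood apart among the more degraded cells in its mitochondrial share (51.8% of counts), its summed mitochondrial rRNA (435625 CPM) and its summed mitochondrial mRNA (82753 CPM). Tnmd-/- cell 7 stood apart in its pseudogene share (2.21%). Tnmd-/- cell 1 had 684 CPM on loci annotated over rRNA copies, and WT cell 1 had 19284 CPM on proteasome subunits.

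Among the less degraded cells, WT cell 4 had the lowest share of counts on genes over 4 kb (35.1%) and the lowest median gene length of nuclear counts (3276 bases), and WT cell 10 had the highest share on genes under 1 kb (6.33%). Tnmd-/- cell 9 had 598 CPM on sensory receptor genes and 14425 CPM on immediate early genes. Tnmd-/- cell 20 had 13068 CPM on the secretory list and Tnmd-/- cell 10 had 7399 CPM on the unfolded protein response list.

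The genotypes moved opposite ways in the genes with at least 1 count after thinning to 892713 counts: the median of the more degraded cells was 421 genes above that of the less degraded ones in Tnmd-/- cells, and 877 genes below it in WT cells (-877), with no overlap within either genotype. This difference was not tested. It was not seen with at least 10 counts, nor at shallower depths: at 300000 counts the Tnmd-/- levels overlapped, and from 10000 to 100000 counts Tnmd-/- cells 3 and 7 had fewer genes than every less degraded Tnmd-/- cell, the direction of the WT cells.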

How the results depend on the processing

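The level difference of genes detected was -829 genes in the medians, -92 after thinning and -1444 with at least 10 counts. Within Tnmd-/- cells alone the difference was 4.198 percentage points in the long non-coding share (1.18 over all cells), 22.7 points in the share of genes over 4 kb (9.70) and 2421 bases in the median length (586.5). Genes past 4-fold numbered 577 and 89 (less and more degraded side); they were 231 and 223 with DESeq2 size factors, 331 and 34 with 5 CPM added, and 325 and 39 with at least 10 counts in at least 6 of 12 cells. The more degraded side had 201 by the ratio of mean CPM, 205 by the ratio of pooled counts, 154 without Tnmd-/- cells 3 and 7 and 73 to 145 without 1 cell at a time. The mitochondrial share differed by 2.48 points, by 1.39 without Tnmd-/- cell 1, 3 or 7, and the pseudogene share by 0.32 points, by 0.17 without Tnmd-/- cell 3 or 7 or WT cell 2. The median rank correlation within the less degraded cells was 0.42 with the filter at 6 of 12 cells. DESeq2 size factors turned the medians of 11 of 22 lists below 0: mitochondrial mRNA (-1.06), heat shock (-1.0), small RNA host (-0.96), unfolded protein response (-0.41), apoptosis (-0.29), immediate early (-0.26), RNA decay (-0.25), splicing (-0.22), ribosomal protein (-0.16), tendon fibroblast markers (-0.16) and tendon regulators (-0.0091). Leaving out 1 cell turned heat shock (-0.46 without Tnmd-/- cell 3), mitochondrial mRNA (-0.27 without Tnmd-/- cell 7), small RNA host genes (-0.37, -0.10 and -0.23 without WT cells 5, 1 and 14) and tendon fibroblast markers (-0.078 without WT cell 4), and WT cells alone gave -0.26 for ribosomal protein genes. The causes were not tested. In 239 other alternatives the measures stayed within the spread between cells or the counts within 1.5 times, and 440 of 462 alternatives for 22 lists stayed within that spread, sign changes near 0 included. The added alternatives (without cells 3 and 7, other lengths, without 50 genes, counts of 1 to 9 set to 0) were chosen after seeing the data. No paired analysis was possible because no test was made and the cell numbers only name picked cells. Depth limits what the shallow cells show: a count of 1 is worth more CPM in Tnmd-/- cell 7 than in any other cell.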

Other observations

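Genes of sensory receptors, which tendon cells are not known to express, were looked at after their values were seen. Summed over 1517 odorant, vomeronasal, trace amine and taste receptor genes, they were at 2.58 to 598 CPM in the less degraded cells and 47.8 to 4084 CPM in the more degraded cells, with medians of 42.0 and 558 CPM. The number of such genes with a count overlapped (8 to 30 and 9 to 34).

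The most alike pair of cells was WT cells 2 and 14, with a rank correlation of 0.51 across genes, followed by Tnmd-/- cell 9 with WT cell 14 at 0.50 and Tnmd-/- cell 7 with WT cell 1 at 0.44. These 3 pairs are also among the 15 pairs with over 80% of one cell's high genes counted in the other. The second of them crosses both genotype and degradation level.

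Genes called TEC, annotated transcripts that await experimental evidence, took 0.058% to 0.39% of the counts in the less degraded cells and 0.067% to 2.72% in the more degraded cells. In Tnmd-/- cell 7, 2 of them, Gm37728 and Gm42515, were at 6642 and 4862 CPM, while Gm42515 was at most 0.22 CPM in any other cell and Gm37728 at most 60.7 CPM.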
